A study of Mus musculus with 8 samples.

Results

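Tetraspanins, the endosomal sorting complexes required for transport (ESCRT) and related genes that form exosomes were measured in mouse retina by RNA sequencing. The group was defined by a fixed list of 37 gene names, and every gene of that name was taken from tables of 54532 genes. All 37 names were found, in 38 entries, because Hgs is listed under 2 gene identifiers. The retinas fell into 2 groups of 4 libraries, labelled sIVs, read here as small intracellular vesicles from the words of the title, and PBS, the control group. Each group has replicates 1, 3, 4 and 5. The labels gave the tissue as retina and named no strain, age, sex, dose, route, time after treatment or injury, and they did not say whether the libraries came from separate animals, so p-values measure only the spread between these libraries.

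Cells release exosomes by budding small vesicles into the lumen of endosomes and fusing the resulting multivesicular body with the cell surface. ESCRT-0 gathers ubiquitinated cargo, ESCRT-I and ESCRT-II begin the bud, ESCRT-III filaments narrow its neck, and the VPS4 ATPase takes the filaments apart. Tetraspanins, small membrane proteins with paired extracellular loops, organise membrane microdomains and are standard markers of extracellular vesicles. Syntenin with ALIX, ceramide made by neutral sphingomyelinase, and flotillins provide further routes to vesicle formation. The series concerns vesicle uptake and protection of the retina, and the comparison here is of the tissue's own vesicle machinery between the groups.

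None of these genes passed the test between sIVs and PBS retinas. Of the 37 genes, 36 had enough counts to be tested, and 0 of these 36 had an adjusted p under 0.05 (edgeR quasi-likelihood test, Benjamini-Hochberg adjustment over 17004 genes), against 0% of all genes tested. At an unadjusted p under 0.05 stood 1 of the 36 genes, against 1.5% of all genes; it was higher in sIVs retinas, as were 1.04% of all genes, and 0 were lower, as were 0.459%. DESeq2 and limma-voom with quality weights also called 0 genes of the group, each with 1 gene at an unadjusted p under 0.05. The log2 fold change was positive for 26 of 36 genes, against 51.3% of all genes, with a median of 0.17 and a range of -0.22 to 1.19. Without sIVs replicate 4 the median was 0.018 and 20 of 36 were positive. The median over all genes tested was 0.0093 with all libraries and 0.0009 without that library.

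**Figure D1:**
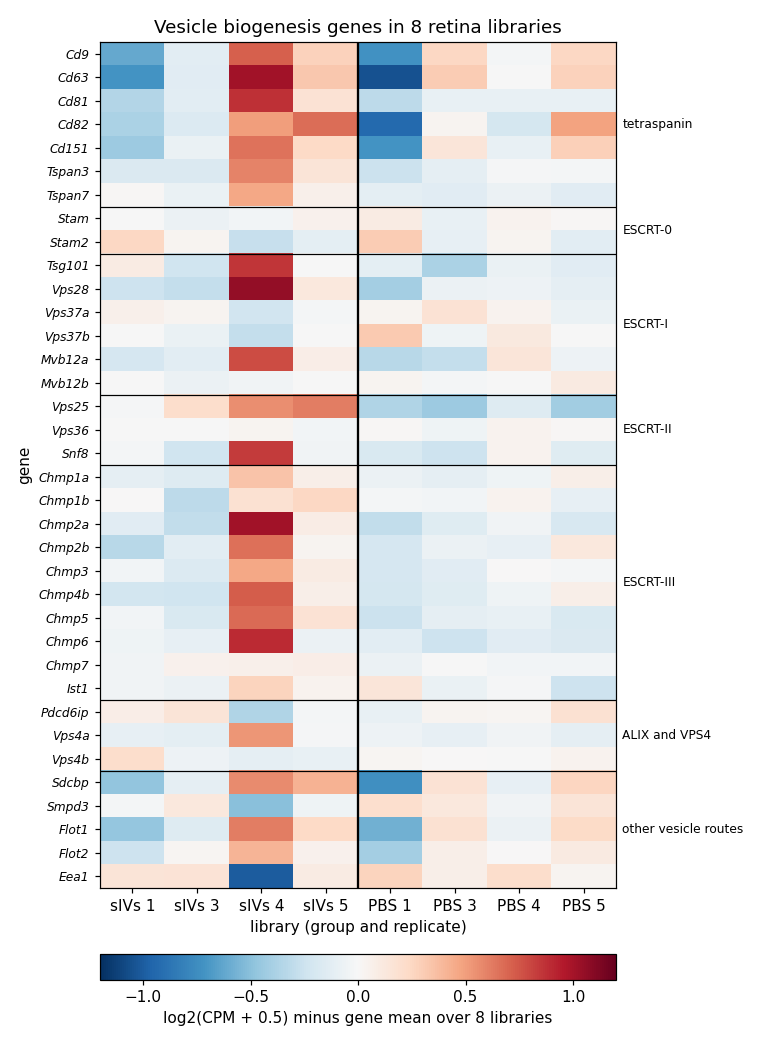
Level of each of the 36 tested genes (rows, by role) in each library (columns, 4 sIVs left of the line and 4 PBS right of it), as log2(CPM + 0.5) minus the mean of that gene over the 8 libraries (CPM are read counts divided by TMM-normalised library size, on the usual scale). Replicate 4 of the sIVs group had the highest value for 22 genes (of all genes, 35.7%) and the lowest for 7 (35.4%), and PBS replicate 1 had the lowest value for 13 (18.5%).

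Library facts bear on every value. Total counts ran from 13915203 to 16009589 in sIVs libraries and from 13803958 to 16622259 in PBS libraries. Rod marker genes were abundant in all 8 libraries, at a summed 34245 to 56462 CPM in sIVs and 29158 to 55191 CPM in PBS retinas. The sum of 10 pigment epithelium genes, from the layer behind the retina, was 427 CPM in sIVs replicate 4 and at most 56.4 CPM in the other 7 libraries. Of these 10, Rpe65 was at 60.2 CPM and Rgr at 153 CPM in sIVs replicate 4 and at most 4.12 and 20.4 CPM in the others, and Ttr, Rdh5 and Lrat were also highest in that library. The other 5 were highest elsewhere: Tyrp1 was at 5.57 CPM in sIVs replicate 4 and 6.46 CPM in sIVs replicate 5, Pmel at 1.90 CPM in sIVs replicate 4 and 4.21 CPM in PBS replicate 5, and Tyr, Slc45a2 and Best1 were at most 1.17 CPM in all 8. In a list of 6 genes for ciliary body, lens and stroma, the lens crystallin genes Cryaa, Cryba1 and Crygd were at or near 0 throughout. The collagen gene Col1a2 was at 27.4 CPM in sIVs replicate 5 and 26.5 CPM in PBS replicate 5, and at most 10.9 CPM in the others. Col1a1 was at 12.4 and 9.45 CPM in these libraries and at most 2.20 CPM in the others. Dcn was at most 1.17 CPM. The summed red blood cell genes did not overlap between the groups, at 9.02 to 26.3 CPM in sIVs and 4.03 to 8.33 CPM in PBS retinas. Singly, Hba-a1, Hbb-bs and Hbb-bt overlapped between the groups, each with an edgeR adjusted p of 0.81. The part of blood content in the other values was not tested. In this bulk tissue, fewer cells of a type and less RNA per cell cannot be told apart. On the opposite strand, 7 of the genes (Ist1, Vps37a, Vps37b, Vps4a, Sdcbp, Chmp1a and Smpd3) overlap another protein-coding gene, and on the same strand 4 do (Hgs, Vps25, Chmp1b and Vps28). The strand setting of the counting is not given in the sources used here, so reads of overlapping genes may have been split or lost.

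Among the tetraspanins, levels per gene length covered more than 1 order of magnitude. Tspan7, a neuronal membrane protein gene on the X chromosome (X, 10485158 to 10596605, mm10), was the highest of the 7 over all libraries, with a deposited level of 75.7 ± 12.995 FPKM in sIVs and 64.4 ± 1.28 FPKM in PBS retinas (SD, n = 4 each; FPKM are fragments scaled to gene length and to library size). It stood at 504, 474, 688 and 524 CPM in sIVs replicates 1, 3, 4 and 5, and at 462, 456, 476 and 456 CPM in PBS replicates 1, 3, 4 and 5. The groups overlapped through sIVs replicate 3. Its log2 fold change was 0.24 ± 0.13 (SE; edgeR adjusted p = 0.81) and 0.11 without sIVs replicate 4. Tspan3 and Cd81, the second a partner of immune and adhesion receptors and a common exosome marker, came next at 74.7 ± 19.7 and 70.4 ± 28.0 FPKM in sIVs and 63.9 ± 5.01 and 55.1 ± 4.13 FPKM in PBS retinas (SD, n = 4 each). Cd81 was at 327 CPM in sIVs replicate 4 and between 140 and 201 CPM in the other 7 libraries. The log2 fold changes of Tspan3 and Cd81, 0.24 and 0.36, were 0.043 and 0.055 without that library.

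Cd63, the tetraspanin of late endosomes and lysosomes (chromosome 10, 128900989 to 128912822), varied most between libraries, 4.18-fold from the lowest to the highest. It stood at 49.4, 73.9, 164 and 102 CPM in sIVs replicates 1, 3, 4 and 5, and at 39.2, 101, 81.5 and 98.6 CPM in PBS replicates 1, 3, 4 and 5. Low and high libraries occurred in both groups, with the first replicate of each group lowest. The log2 fold change was 0.28 ± 0.39 (SE; edgeR adjusted p = 0.83), and -0.092 without sIVs replicate 4. Cd9, which acts in adhesion and membrane fusion (chromosome 6, 125460266 to 125494791), followed the same order in the sIVs group, at 44.9, 63.3, 113 and 83.7 CPM, and stood at 41.6, 81.8, 68.1 and 82.0 CPM in the PBS group (replicates 1, 3, 4 and 5). Its log2 fold change of 0.16 ± 0.30 (SE; edgeR adjusted p = 0.87) was -0.10 without sIVs replicate 4 and -0.023 without PBS replicate 1.

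Cd82, known as a suppressor of cell migration (chromosome 2, 93419111 to 93463140), was the lowest tetraspanin, at 4.68 ± 1.64 FPKM in sIVs and 3.82 ± 1.52 FPKM in PBS retinas (SD, n = 4 each). It stood at 9.32, 10.9, 17.6 and 19.9 CPM in sIVs replicates 1, 3, 4 and 5, and at 6.20, 12.6, 10.5 and 17.3 CPM in PBS replicates 1, 3, 4 and 5. The ranges of the groups overlapped (log2 fold change 0.30 ± 0.34 SE; edgeR adjusted p = 0.81; 0.19 without sIVs replicate 4). Cd151, which binds laminin-binding integrins, was at 11.6 ± 3.74 FPKM in sIVs and 10.2 ± 2.87 FPKM in PBS retinas (SD, n = 4 each). All 7 tetraspanins had a positive log2 fold change, between 0.16 and 0.36, where 51.3% of all genes were positive. Of them, 6 were highest in sIVs replicate 4, as were 35.7% of all genes, and 5 were lowest in PBS replicate 1, as were 18.5% of all genes. Without sIVs replicate 4, Cd9, Cd63 and Cd151 had negative values and the other 4 ranged from 0.043 to 0.19.

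**Figure D2:**
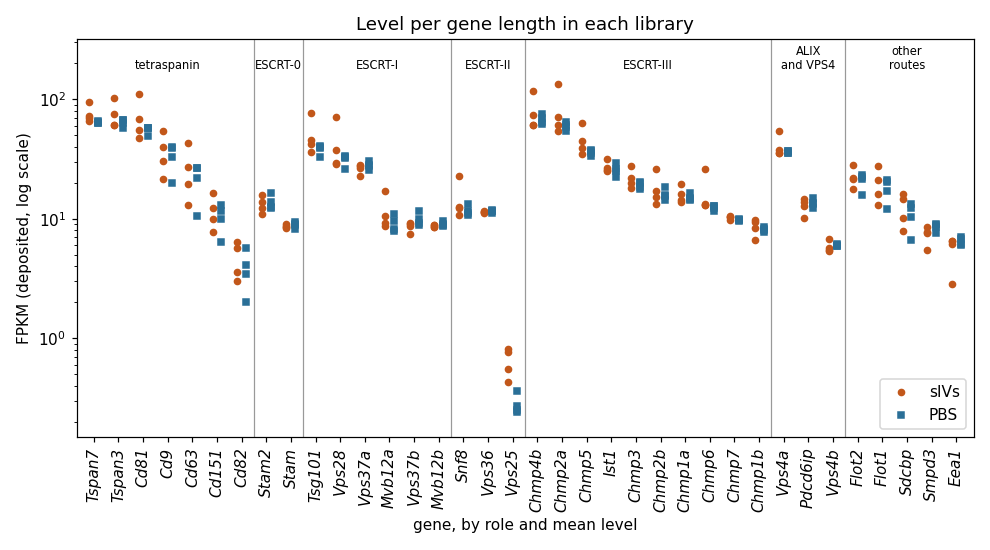
Deposited FPKM (vertical axis, log scale) of the 36 tested genes, grouped by role and ordered by mean level within a role. Each gene has 4 sIVs libraries as circles on the left and 4 PBS libraries as squares on the right; the groups overlap for every gene except Vps25 and Chmp6, and Vps25 lies below 1 FPKM.

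ESCRT-0 consists of HRS, encoded by Hgs, and a STAM protein. Hgs could not be measured. Both of its identifiers lie on the plus strand of chromosome 11, at 120467635 to 120483979 and at 120467635 to 120483984, so their spans are nearly the same. The first was listed with 1, 2, 0 and 0 counts in sIVs replicates 1, 3, 4 and 5 and with 0, 2, 0 and 0 counts in PBS replicates 1, 3, 4 and 5. The second was listed at 0 in all 8 libraries. How reads were assigned where genes overlap is not given in the sources used here, so these counts do not show that the gene was silent.

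The adaptor genes Stam and Stam2 had overlapping groups. Stam (chromosome 2, 14074098 to 14149634) was at 74.7, 71.4, 73.3 and 77.8 CPM in sIVs replicates 1, 3, 4 and 5, and at 80.2, 70.7, 77.5 and 75.7 CPM in PBS replicates 1, 3, 4 and 5. The Stam log2 fold change was -0.033 ± 0.085 (SE; edgeR adjusted p = 0.90), with a 95% interval of -0.24 to 0.18. Stam2 (chromosome 2, 52691664 to 52742281) was at 97.4, 83.9, 67.8 and 75.7 CPM in sIVs replicates 1, 3, 4 and 5, and at 101, 76.9, 84.2 and 75.1 CPM in PBS replicates 1, 3, 4 and 5. It was highest in the first replicate of both groups, the libraries in which Cd63 was lowest. The Stam2 log2 fold change was -0.055 ± 0.14 (SE; edgeR adjusted p = 0.91), and 0.021 without sIVs replicate 4.

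Within ESCRT-I, the core subunit gene Tsg101 (chromosome 7, 46888949 to 46919969) had the highest level per length, 50.6 ± 18.3 FPKM in sIVs and 38.2 ± 3.43 FPKM in PBS retinas (SD, n = 4 each). It stood at 128, 102, 217 and 119 CPM in sIVs replicates 1, 3, 4 and 5, and at 110, 92.1, 113 and 109 CPM in PBS replicates 1, 3, 4 and 5. The level in sIVs replicate 4 was far above the other 7. Its log2 fold change of 0.42 ± 0.22 (SE; edgeR adjusted p = 0.81) was 0.13 without that library. Vps28, another core subunit gene (chromosome 15, 76622087 to 76626086; 85 bp shared with Tonsl on the same strand), was at 68.5, 66.8, 170 and 89.0 CPM in sIVs replicates 1, 3, 4 and 5, and at 61.5, 77.6, 78.4 and 75.9 CPM in PBS replicates 1, 3, 4 and 5. Of the sIVs values, 2 lay within the PBS range, and the log2 fold change of 0.43 ± 0.28 (SE; edgeR adjusted p = 0.81) was 0.025 without sIVs replicate 4.

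Among the remaining ESCRT-I genes, 1 was high in that library and 2 were lowest in it. Mvb12b (chromosome 2, 33729953 to 33887946), with the lowest level per length in the complex, was at 79.1, 75.4, 77.1 and 79.2 CPM in sIVs replicates 1, 3, 4 and 5, and at 81.0, 77.8, 79.2 and 85.5 CPM in PBS replicates 1, 3, 4 and 5. Its 8 values lay close together, with a log2 fold change of -0.058 ± 0.081 (SE; edgeR adjusted p = 0.84). Its paralogue Mvb12a was at 54.3 CPM in sIVs replicate 4 and between 24.7 and 34.7 CPM in the other 7 libraries, and its log2 fold change of 0.32 was 0.045 without that library. Vps37a and Vps37b, alternative subunits of the same position in the complex, were lowest in sIVs replicate 4, at 150 and 21.3 CPM, and had log2 fold changes of -0.082 and -0.19, which were -0.025 and -0.13 without that library.

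ESCRT-II held the gene with the smallest p. Vps25 (chromosome 11, 101253707 to 101259549) had 10, 13, 20 and 20 counts in sIVs replicates 1, 3, 4 and 5, and 6, 7, 9 and 7 counts in PBS replicates 1, 3, 4 and 5. Every sIVs library exceeded every PBS library, at 0.72 to 1.38 CPM against 0.41 to 0.60 CPM. The log2 fold change was 1.19 ± 0.34 (SE; edgeR unadjusted p = 0.00603, adjusted p = 0.81), and 1.09 without sIVs replicate 4. Of its listed span, 99.95% lies within Ramp2 on the same strand, and Ramp2, which encodes a receptor accessory protein of blood vessels, had 40, 68, 141 and 96 counts in the sIVs and 46, 64, 56 and 95 counts in the PBS replicates 1, 3, 4 and 5. The level of Vps25 is therefore uncertain, and the part of the overlap in the difference was not tested.

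The other 2 ESCRT-II genes had far more counts. Snf8 (chromosome 11, 96034885 to 96047430) was at 34.2, 29.4, 62.6 and 33.9 CPM in sIVs replicates 1, 3, 4 and 5, and at 30.6, 29.2, 35.9 and 31.4 CPM in PBS replicates 1, 3, 4 and 5. Without sIVs replicate 4 its log2 fold change of 0.33 ± 0.23 (SE; edgeR adjusted p = 0.81) was 0.030. Vps36, which binds ubiquitin and membrane lipid, varied least of the 36 genes, 1.07-fold over the 8 libraries, between 42.5 and 44.5 CPM in sIVs and between 42.0 and 44.7 CPM in PBS retinas. The log2 fold change of Vps36, -0.0058, had a 95% interval of -0.21 to 0.20.

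All 10 ESCRT-III genes had positive log2 fold changes, between 0.072 and 0.43, where 51.3% of all genes were positive, and 0 passed. Chmp4b (chromosome 2, 154651705 to 154694785), which encodes the main filament subunit, had the highest level per length over all libraries, 78.4 ± 26.7 FPKM in sIVs and 67.9 ± 5.92 FPKM in PBS retinas (SD, n = 4 each). It stood at 127, 125, 245 and 155 CPM in sIVs replicates 1, 3, 4 and 5, and at 128, 134, 143 and 156 CPM in PBS replicates 1, 3, 4 and 5. The log2 fold change of 0.22 ± 0.21 (SE; edgeR adjusted p = 0.81) was -0.047 without sIVs replicate 4. Chmp2a, which joins the filament late, was at 79.8 ± 36.3 FPKM in sIVs and 59.7 ± 4.19 FPKM in PBS retinas (SD, n = 4 each). It was at 133 FPKM in sIVs replicate 4 and between 54.5 and 70.9 FPKM in the other 3 sIVs libraries, and its log2 fold change of 0.43 was 0.059 without that library. Of the 10 genes, 8 were highest in sIVs replicate 4, as were 35.7% of all genes.

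Chmp5, a regulator of VPS4 (chromosome 4, 40948407 to 40965303), had the smallest p of ESCRT-III. It stood at 60.3, 54.2, 98.7 and 69.5 CPM in sIVs replicates 1, 3, 4 and 5, and at 51.5, 57.2, 57.8 and 54.3 CPM in PBS replicates 1, 3, 4 and 5. The groups overlapped in sIVs replicate 3, and the log2 fold change of 0.36 ± 0.18 (SE; edgeR adjusted p = 0.81) was 0.15 without sIVs replicate 4. Chmp6, which links ESCRT-II to the filament (chromosome 11, 119913441 to 119919548), did not overlap between the groups, at 33.3, 32.2, 64.6 and 32.7 CPM in sIVs replicates 1, 3, 4 and 5, and at 31.4, 29.0, 31.4 and 30.6 CPM in PBS replicates 1, 3, 4 and 5. The gap between the groups was small: the lowest sIVs value was 32.2 and the highest PBS value 31.4 CPM. The Chmp6 log2 fold change of 0.41 ± 0.23 (SE; edgeR adjusted p = 0.81) was 0.097 without sIVs replicate 4. Vps25 and Chmp6 were the 2 of 36 genes without overlap between the groups, against 2.01% of all genes. In both, all sIVs libraries lay above the PBS libraries, as in 1.08% of all genes.

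Chmp1b (chromosome 18, 67203531 to 67207880) had the lowest level per length of ESCRT-III, at 36.9, 29.5, 41.8 and 43.8 CPM in sIVs replicates 1, 3, 4 and 5, and at 36.3, 36.0, 38.0 and 34.4 CPM in PBS replicates 1, 3, 4 and 5. It lies wholly within Gnal on the same strand, so its level is uncertain (log2 fold change 0.072 ± 0.13 SE; edgeR adjusted p = 0.87; 0.021 without sIVs replicate 4). Chmp7, which recruits ESCRT-III to the nuclear envelope, spanned only 61.4 to 68.3 CPM over the 8 libraries. Ist1, a modulator of VPS4 recruitment, was at 27.2 ± 2.96 FPKM in sIVs and 25.6 ± 2.85 FPKM in PBS retinas (SD, n = 4 each), and its log2 fold change of 0.096 was 0.015 without sIVs replicate 4. Chmp1a, Chmp2b and Chmp3 had log2 fold changes of 0.092, 0.17 and 0.20, and of -0.022, -0.079 and 0.059 without sIVs replicate 4.

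Vps4a (chromosome 8, 107031222 to 107045755), which encodes the disassembly ATPase, was at 91.3, 90.5, 141 and 96.9 CPM in sIVs replicates 1, 3, 4 and 5, and at 94.0, 91.4, 95.3 and 91.0 CPM in PBS replicates 1, 3, 4 and 5. Apart from sIVs replicate 4 the 7 libraries were within 90.5 to 96.9 CPM, and the log2 fold change of 0.18 ± 0.15 (SE; edgeR adjusted p = 0.81) was -0.0027 without it. Its paralogue Vps4b (chromosome 1, 106764071 to 106796728) was at 62.1, 51.3, 49.7 and 50.5 CPM in sIVs replicates 1, 3, 4 and 5, and at 54.4, 53.8, 53.3 and 55.1 CPM in PBS replicates 1, 3, 4 and 5. Here sIVs replicate 1 stood apart, on the high side (log2 fold change -0.021 ± 0.10 SE; edgeR adjusted p = 0.95; 0.010 without sIVs replicate 4). Pdcd6ip, which encodes ALIX, was lowest in sIVs replicate 4, at 72.0 CPM, against 87.1 to 105 CPM in the other 7 libraries, with a log2 fold change of -0.067 that was 0.027 without that library.

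Of the genes for other vesicle routes, Flot2 (chromosome 11, 78037931 to 78060434), a membrane raft scaffold gene, had the highest level per length. It stood at 49.9, 60.1, 78.6 and 61.3 CPM in sIVs replicates 1, 3, 4 and 5, and at 44.4, 62.1, 59.6 and 64.0 CPM in PBS replicates 1, 3, 4 and 5. The first replicate was lowest in both groups (log2 fold change 0.12 ± 0.16 SE; edgeR adjusted p = 0.83; -0.015 without sIVs replicate 4). Smpd3, which encodes neutral sphingomyelinase 2 (chromosome 8, 106252548 to 106337988), was at 41.3, 45.7, 29.5 and 40.5 CPM in sIVs replicates 1, 3, 4 and 5, and at 48.4, 45.8, 40.8 and 46.6 CPM in PBS replicates 1, 3, 4 and 5. The Smpd3 log2 fold change was -0.21 ± 0.14 (SE; edgeR adjusted p = 0.81), and -0.096 without sIVs replicate 4, which was its lowest library. Eea1, the early endosome tether (chromosome 10, 95940650 to 96045518), was at 63.6, 64.2, 28.2 and 61.1 CPM in sIVs replicates 1, 3, 4 and 5, and at 68.6, 60.1, 66.3 and 58.4 CPM in PBS replicates 1, 3, 4 and 5. The other 3 sIVs libraries lay within the PBS range, and the log2 fold change of -0.22 ± 0.23 (SE; edgeR adjusted p = 0.81) was -0.011 without sIVs replicate 4. Sdcbp, which encodes syntenin, and Flot1 had log2 fold changes of 0.21 and 0.14, and of 0.043 and -0.080 without that library.

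**Figure D3:**
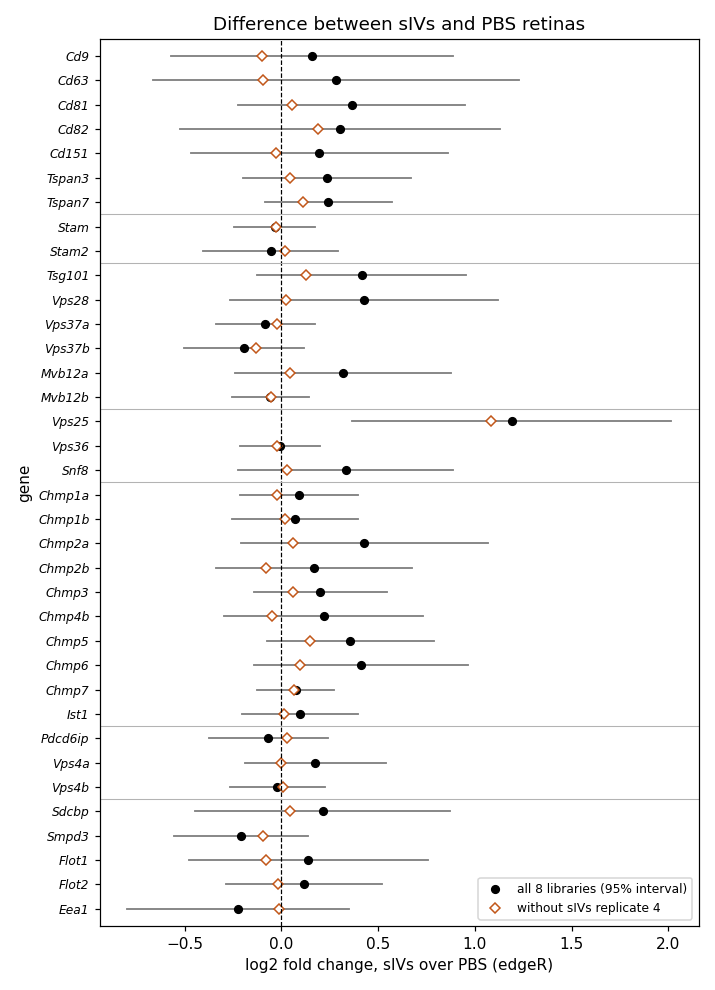
Log2 fold change of sIVs over PBS retinas for each of the 36 tested genes (filled circles) with approximate 95% confidence intervals (lines), and the value without sIVs replicate 4 (open diamonds). Vps25 is the only gene whose interval lies wholly above 0, and most open diamonds lie closer to 0 than the filled circles.

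The departures of sIVs replicate 4 went with gene length. Over the 36 genes, the log2 deviation of this library from the mean of the gene correlated with log2 gene length at r = -0.71, as a description across genes, while the other 7 libraries gave values between -0.27 and 0.45. Over all 17004 genes tested, r was -0.34 in sIVs replicate 4 and between -0.075 and 0.23 in the others. Of the 18 genes listed below the median length of 3163.5 bp, 17 were above their mean in this library, with a median deviation of 0.69, against 10 of the 18 longer genes, with a median of 0.046. The longest gene, Eea1 at 9592 bp, had the lowest value and the short Chmp2a, at 1162 bp, one of the highest. Gene length and 5 of the 10 pigment epithelium markers (Rpe65, Rgr, Ttr, Rdh5 and Lrat) moved with this library, while the other 5 were highest in other libraries. Their part in the values was not tested.

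**Figure D4:**
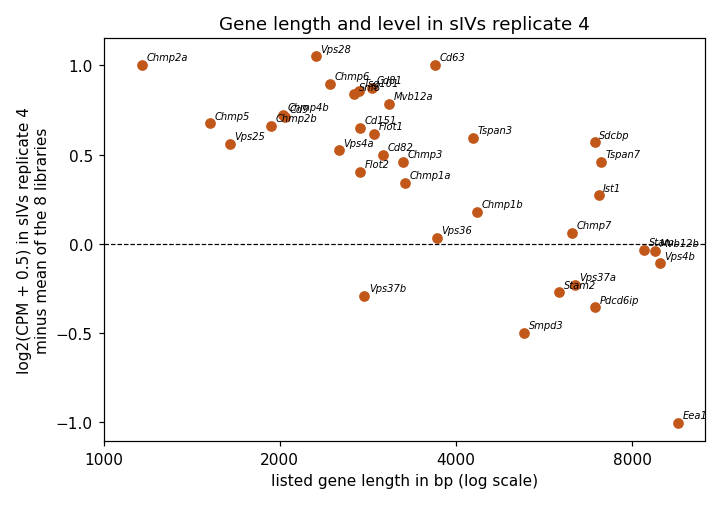
Listed gene length in base pairs (horizontal axis, log scale) of the 36 tested genes against their level in sIVs replicate 4, as log2(CPM + 0.5) less its average across all libraries. Of the 18 points below 3163.5 bp, 17 lie above the dashed zero line and Eea1 at 9592 bp lies lowest.

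Paralogues of the same step were mostly present in unequal proportions. Vps4b made up 9.07% to 16.2% of the summed FPKM of Vps4a and Vps4b over the 8 libraries, and Chmp2b 16.5% to 23.7% of that of its pair. Vps37b made up 22.5% to 29.3% and Chmp1b 32.3% to 37.8%. Stam2 exceeded Stam in 8 of 8 libraries, with 56.4% to 64.5%, and Flot2 exceeded Flot1 in 8 of 8, with 50.4% to 57.9%. The share of Mvb12b was 33.3% in sIVs replicate 4 and 44.6% to 53.6% in the others, the widest range of the 7 pairs. No difference between the groups passed the test for any of the 7 shares. The largest difference was that of Mvb12b, 44.4% ± 7.65 in sIVs and 49.99% ± 3.88 in PBS retinas (SD, n = 4 each; two-sided exact permutation p = 0.257, adjusted over 7 pairs p = 0.867). This difference of -5.58 percentage points was -1.88 without sIVs replicate 4. The share of Chmp2b was 18.9% ± 2.31 in sIVs and 21.2% ± 1.81 in PBS retinas (SD, n = 4 each; exact permutation p = 0.171, adjusted p = 0.867), and 4 against 4 libraries cannot give a p below 0.0286. FPKM divides by the listed gene length, which may differ from that of the transcript made, so the shares depend on those lengths.

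A set of these genes varied together from library to library in both groups, in step with markers of reactive gliosis, the injury response of retinal glia. The marker score was the mean over 8 genes of the log2 deviation from the gene's mean. In sIVs replicates 1, 3, 4 and 5 it was -0.83, 0.25, 0.93 and 0.57. In PBS replicates 1, 3, 4 and 5 it was -2.16, 0.72, 0.020 and 0.50. Edn2, Serpina3n, Lcn2 and Cebpd were highest in sIVs replicate 4, and Gfap, Fgf2, Socs3 and Stat3 in PBS replicate 3. Lcn2 was at 210 CPM in sIVs replicate 4 and 91.6 CPM in PBS replicate 3, and Gfap at 102 and 121 CPM. All 8 were lowest in PBS replicate 1. The part of gene length in the score was not tested. The score was compared with each gene over the 8 libraries, a comparison chosen after the values were seen. Of the 36 genes, 7 correlated positively at an adjusted p under 0.05 (exact permutation test of Pearson's r, adjusted over 16996 genes), where 2.18% of all genes did, and 1 negatively, where 1.15% did. At an unadjusted p under 0.05 there were 8 positive genes, against 10.4% of all genes, and 2 negative ones, against 7.99%; the additional ones were Chmp7 and Vps37b.

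The 7 were Sdcbp (r = 0.93), Cd151 (0.93), Cd63 (0.93), Flot2 (0.92), Cd9 (0.91), Flot1 (0.89) and Cd82 (0.88), that is 4 of the 7 tetraspanins, both flotillins and syntenin. For Cd63, r = 0.93 had an exact permutation p = 0.000223 and adjusted p = 0.0308, and Spearman's rho = 0.95 an exact p = 0.00114 and adjusted p = 0.045. For the other 6, Spearman's rho was 0.88 to 0.93 with adjusted p between 0.0534 and 0.0753 (exact permutation), so of these 7 only Cd63 passed by rank. By rank, Cd81 lay within the range of the 7 and Chmp2b just below it. Cd81, with r = 0.62, had rho = 0.93 (exact permutation adjusted p = 0.0534), the same as Flot2. Chmp2b, with r = 0.61, had rho = 0.86 (exact permutation adjusted p = 0.0906). Without the first replicate of each group, the 2 libraries farthest from the median score, r over the remaining 6 was 0.87 for Cd63, 0.89 for Cd9, 0.88 for Sdcbp and Cd151, 0.89 for Flot1, 0.76 for Flot2 and 0.68 for Cd82. Without sIVs replicate 4 these 7 values were 0.86 to 0.98. Sdcbp stood at 55.7, 71.9, 115 and 104 CPM in sIVs replicates 1, 3, 4 and 5, and at 46.4, 87.3, 72.1 and 92.6 CPM in PBS replicates 1, 3, 4 and 5, so its order followed the score within each group except for PBS replicates 3 and 5.

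Stam2 was the only gene of the group to pass with the opposite pattern (r = -0.93, exact permutation p = 0.000248, adjusted p = 0.0308). Its rho was -0.90 (exact permutation adjusted p = 0.0614), and its r was -0.92 without the 2 farthest libraries. Vps37b (r = -0.82, exact permutation adjusted p = 0.125) leaned the same way without passing. So did Eea1, with r = -0.49 and rho = -0.86 (exact permutation adjusted p = 0.374 and 0.0906). The ESCRT-I, ESCRT-II and ESCRT-III genes were all short of the adjusted threshold. Tsg101 had r = 0.21 (exact permutation adjusted p = 0.709) and Vps36 r = -0.18 (adjusted p = 0.795). All points share a library, and with it depth and tissue makeup. The permutation test treated all libraries as exchangeable and used no replicate block. The summed rod markers were 56462 and 55191 CPM in sIVs and PBS replicate 1, the libraries of lowest score, and 29158 to 44148 CPM in the other 6. Summed microglia and macrophage markers were 120 and 36.96 CPM in these 2 libraries and 129 to 268 CPM in the others. Each of these markers was lowest in PBS replicate 1, but they were mixed in sIVs replicate 1. There Cx3cr1, C1qa, C1qb and Tyrobp were lower than in any library but PBS replicate 1. P2ry12 was highest there, at 7.81 CPM, and Csf1r, at 35.8 CPM, was above sIVs replicate 3 and PBS replicates 3 and 4. Ctss there was above PBS replicate 3, and Aif1 above sIVs replicate 3. The part of these cell types in the correlations was not tested.

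**Figure D5:**
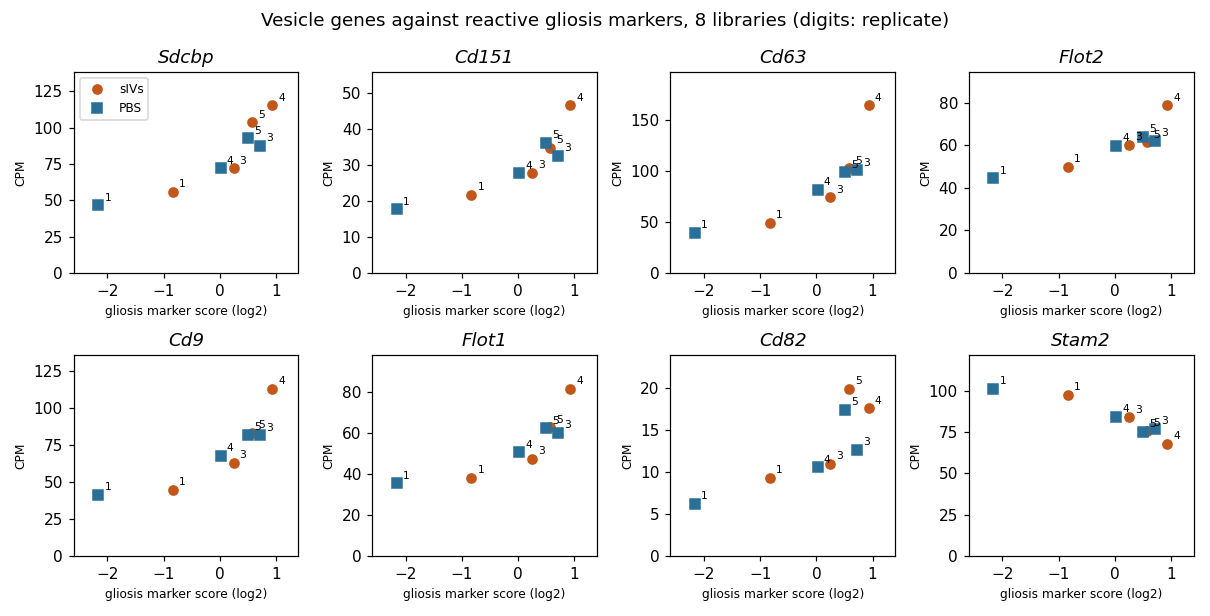
CPM (vertical axis, from 0) of the 8 genes whose correlation with the gliosis marker score (horizontal axis, log2) passed at an adjusted p under 0.05; each point is a library, with sIVs as circles, PBS as squares and the replicate number beside it. Sdcbp, Cd151, Cd63, Flot2, Cd9, Flot1 and Cd82 are higher where the score is higher, Stam2 is lower, and points of both groups lie along the same course.

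Promoter sequence was read for these co-varying genes, to show the DNA before the RefSeq starts of genes that varied together. RefSeq promoter entries (GRCm38.p6, the assembly also named mm10) matched 27 of the 37 names, and 4 of the 8 co-varying genes had a single entry. The 250 bases before each RefSeq start are given 5′ to 3′ on the gene's strand, with capitals marking a GC box or CCAAT box. The windows are chr10:128909095-128909344 (plus strand) for Cd63, chr11:78037681-78037930 (plus) for Flot2, chr6:125494761-125495010 (minus) for Cd9 and chr2:52742150-52742399 (minus) for Stam2. The starts used for Cd63, Cd9 and Stam2 lie inside the gene spans listed in the deposited tables. For Cd63 the whole window lies inside the listed span of 128900989 to 128912822, so it is not upstream of the listed start. The Cd9 and Stam2 windows reach across the listed starts, at 125494791 and 52742281.
Cd63: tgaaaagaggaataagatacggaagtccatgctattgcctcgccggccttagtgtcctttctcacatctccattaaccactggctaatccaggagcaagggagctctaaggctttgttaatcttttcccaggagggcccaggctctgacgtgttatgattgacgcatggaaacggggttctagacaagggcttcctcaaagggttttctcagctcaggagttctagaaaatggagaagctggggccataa
Flot2: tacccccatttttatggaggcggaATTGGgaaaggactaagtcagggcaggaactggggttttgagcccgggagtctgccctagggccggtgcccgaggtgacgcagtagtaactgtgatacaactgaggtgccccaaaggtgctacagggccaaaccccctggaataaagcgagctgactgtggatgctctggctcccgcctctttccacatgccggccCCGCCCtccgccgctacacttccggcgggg
Cd9: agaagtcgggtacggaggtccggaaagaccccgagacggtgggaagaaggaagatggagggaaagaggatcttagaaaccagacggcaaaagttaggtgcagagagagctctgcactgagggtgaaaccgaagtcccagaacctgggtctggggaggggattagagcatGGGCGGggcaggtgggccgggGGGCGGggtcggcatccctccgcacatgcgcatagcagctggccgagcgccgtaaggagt
Stam2: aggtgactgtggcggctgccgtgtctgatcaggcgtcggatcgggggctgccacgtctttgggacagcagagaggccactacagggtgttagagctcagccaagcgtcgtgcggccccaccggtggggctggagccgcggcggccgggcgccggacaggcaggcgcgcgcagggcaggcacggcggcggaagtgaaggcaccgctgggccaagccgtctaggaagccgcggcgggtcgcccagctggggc
The letters searched, on both strands, were GGGCGG (the GC box), CCAAT (the CCAAT box), CACGTG (an E-box) and TTCNNNGAA (the form bound by STAT factors), none overlapping another in these windows. Cd9 holds 2 GC boxes, Flot2 holds 1 GC box and 1 CCAAT box, and Cd63 and Stam2 hold neither. GGGCGG occurred in 32.7% and CCAAT in 33.9% of 32841 promoter windows of the same length. CACGTG and TTCNNNGAA, found in 6.02% and 7.02% of all windows, did not occur in these 4, which says only that these letters are not in the windows.

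The wider pathway gave the same result between the groups. Of 56 further genes of ESCRT accessory factors, other tetraspanins, syndecans and vesicle transport and fusion, 54 were tested and 0 passed, against 0% of all genes. There were 32 positive and 22 negative log2 fold changes, with a median of 0.094, where 51.3% of all genes were positive. At an unadjusted p under 0.05 there were 0, close to the 1.5% of all genes. The smallest p belonged to Arf6, a GTPase of membrane recycling, at 50.1 ± 7.19 CPM in sIVs and 43.4 ± 1.16 CPM in PBS retinas (SD, n = 4 each; log2 fold change 0.21 ± 0.12 SE; edgeR adjusted p = 0.81). Next were Sdc1, a syndecan gene at about 1 CPM (-0.56 ± 0.33 SE), Smpd1, the acid sphingomyelinase gene (0.23 ± 0.14 SE), and Rab27a, a GTPase gene of exosome release (0.31 ± 0.19 SE).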

How the data were processed

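The 8 retina libraries were sequenced as 150 bp paired-end reads after poly(A) selection with strand marking, per the labels' protocols. The authors deposited raw counts per gene, and FPKM values, which are fragments scaled to listed gene length and library size. Coordinates are in mm10, a build taken from the submitters' processing notes. Aligner, counter and strand setting: not given in the sources used here. The columns carried 0 samples of other series, and 37 of 38 entries had the same start and end in GENCODE M21. The genes and lists were chosen with earlier results of these data known.

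Groups and replicate numbers came from the titles. Of 54532 genes, the 17004 that passed filterByExpr entered a TMM-scaled fit in edgeR 4.0.16 under R 4.3.3. Groups were compared by its two-sided quasi-likelihood test, without covariates, at a Benjamini-Hochberg adjusted p of 0.05. The SE of a log2 fold change was taken from its ratio to the root of the F statistic, so it and the 95% intervals are approximate. The fit was checked on simulated counts with known changes. These counts had no outlying library and no trend with gene length, so the check does not cover those features. Alternatives used DESeq2 1.42.0, limma 3.58.1 (voom with sample weights, and log2 of FPKM plus 1 or 0.1), RLE scaling, no filter, a replicate block and left-out libraries. Paralogue shares were compared over the 70 arrangements (scipy 1.17.1), and the gliosis score used log2(CPM + 0.5) with all orderings of the 8 libraries. No 2 libraries of a group were as close as counting noise allows (lowest chi-square per degree of freedom 6.17).

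Named genes were, by role, the highest and lowest by FPKM and the one of smallest p, any without overlap or past a threshold, and the 5 of widest range; other genes of the group are given more briefly. Of the wider list the 4 of smallest p are named.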

Additional observations from a re-analysis of the deposited data

Results flagged for a closer look

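In groups of 4, a library whose gap to its neighbour exceeds 0.829 of the group's range stands apart by Dixon's test, which chance meets in about 1 in 20 groups. Of 72 groups of CPM values (36 genes in 2 groups), 7 held such a library. In the sIVs group, replicate 4 was high for Snf8 (62.6 CPM), Chmp6 (64.6 CPM) and Vps4a (141 CPM) and low for Eea1 (28.2 CPM). Replicate 1 of the sIVs group was high for Vps4b (62.1 CPM). In the PBS group, replicate 1 was low for Cd81 (143 CPM) and Vps28 (61.5 CPM). Among the paralogue shares, that of Chmp1b was low in PBS replicate 5 (32.3% of the summed FPKM of Chmp1a and Chmp1b).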

How the results depend on the processing

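All 16 alternatives to the edgeR test left 0 genes called, in the whole table and in this group. At an unadjusted p under 0.05 the test had 255 genes, against 803 without the filter, 455 with voom, 431 without both sIVs replicate 4 and PBS replicate 1, and 136 to 958 with 1 library left out. In the group this count was 1, and 1 to 3 with 1 library left out, at most without sIVs replicate 3. The replicate block gave 0 called genes, 588 at an unadjusted p under 0.05 and a median of 0.14 for the group. Deviations of same-numbered libraries correlated at 0.618, 0.0311, 0.253 and 0.561 for replicates 1, 3, 4 and 5. Of 4 sIVs libraries, 3 correlated best with their own number. Whether the numbers pair the samples is not known, and the main test did not use them. Of the 20 named log2 fold changes, none turned direction with DESeq2, RLE factors, no filter, FPKM values or the block. With voom quality weights the median was -0.0076 and 8 turned: Cd82 -0.0222, Stam2 0.0812, Chmp4b -0.0742, Chmp1b -0.0694, Flot2 -0.0596, Cd63 -0.26, Vps28 -0.0535 and Cd9 -0.24. Without both sIVs replicate 4 and PBS replicate 1 the median was -0.0079 and 10 turned: Cd82 -0.0133, Stam2 0.12, Stam 0.0003, Chmp4b -0.085, Vps4b 0.0145, Flot2 -0.12, Eea1 0.0314, Cd63 -0.31, Vps28 -0.0476 and Cd9 -0.27. With 1 library left out, the median ranged from 0.0178 to 0.28, and 8 values turned in at least 1 setting, with ranges of -0.16 to 0.040 for Stam2, -0.0468 to 0.33 for Chmp4b, -0.0051 to 0.18 for Chmp1b, -0.0027 to 0.24 for Vps4a, -0.10 to 0.010 for Vps4b, -0.0154 to 0.21 for Flot2, -0.0924 to 0.50 for Cd63 and -0.10 to 0.34 for Cd9. Ranges that did not cross 0 included 0.0903 to 0.55 for Cd82, -0.0682 to -0.0111 for Stam, -0.31 to -0.0106 for Eea1, 0.0248 to 0.57 for Vps28 and 1.06 to 1.34 for Vps25. The differences in paralogue share ranged from -1.91 to 0.815 percentage points for Stam2, -2.25 to 0.1095 for Vps4b, -1.36 to 0.463 for Chmp1b and -1.33 to 1.17 for Flot2. The cause of these turns was not tested. The block left every paralogue share short of the threshold. Low counts limit Vps25 and Hgs.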

Other observations

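Tetraspanins known from photoreceptors, leukocytes or pigmented cells, picked after their values were seen, were at very different levels. Prph2 and Rom1, the tetraspanins of photoreceptor discs, stood at 4451 ± 1062 and 1836 ± 534 CPM in sIVs and 3806 ± 1097 and 1463 ± 414 CPM in PBS retinas (SD, n = 4 each). Cd53, a leukocyte tetraspanin, was at 1.79, 4.19, 9.82 and 9.28 CPM in sIVs replicates 1, 3, 4 and 5, and at 1.06, 5.15, 2.96 and 6.08 CPM in PBS replicates 1, 3, 4 and 5. Tspan10, known from pigmented cells, was at 5.11 CPM in sIVs replicate 4 and between 0.71 and 2.17 CPM in the other 7 libraries.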
